A study of Rattus norvegicus with 56 samples.

Results

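The repressive histone mark H3K27me3 was compared between the ipsilateral side of the rat brain, where an intracerebral haemorrhage (bleeding within the brain) had occurred, and the contralateral side of rats labelled 21 months of age. The members are every H3K27me3 peak that the authors' lists hold for these groups, 300668 ipsilateral and 367061 contralateral peaks. They make up 667729 of the 1619269 peaks in the 16 lists of the series. Each peak is a stretch in which chromatin immunoprecipitation (ChIP) gave more sequenced fragments than a local background, with input chromatin as the control. Both groups are brain tissue of rats with a haemorrhage, both carry the agent label "none", and H3K27me3 was pulled down with the same antibody. The labels give no strain, sex, brain region, time after the bleed or unoperated rats, and the series text gives 22 months where the sample labels give 21.

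For each side 2 ChIP and 2 input libraries were pooled before peaks were called, so each side is 1 list. No value below therefore has a spread between replicates, and the sides were not tested against each other. Whether the 2 libraries of a side came from separate animals is not in the labels. The study also mapped H3K4me3 and H3K9ac in the same groups, all 3 marks at 13 months, and, after plasma from donors of 3 or 22 months, H3K9ac and H3K27me3 on the ipsilateral side at 21 months. The caller kept 117740131 ChIP tags on the ipsilateral side and 73142126 on the contralateral side, beside 111945251 and 121354364 input tags. The contralateral list was therefore the longer one with the fewer ChIP tags. The fragment length that the caller estimated, which is also the shortest peak it reports, was 196 bp for the ipsilateral list and 212 bp for the contralateral list. What depth and fragment length contribute to the differences between the lists was not tested.

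H3K27me3 is laid down by Polycomb repressive complex 2, whose catalytic subunit is EZH2 or EZH1, and it is read by Polycomb repressive complex 1. In differentiated tissue it keeps developmental regulators of other lineages silent. At such genes it forms wide, continuous domains, and over much of the remaining silent genome it is spread thinly. Promoters that carry it together with H3K4me3, the mark of active and poised promoters, are called bivalent in cells of 1 type. In a whole tissue the marks may sit on different cells, and fewer cells of a type cannot be told apart from less of a mark per cell. Regions are given by position, with no gene names, because an annotation of this build was not used here, and for the same reason the tissue label was not checked against marker genes.

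Most ipsilateral H3K27me3 peaks and about as many contralateral peaks as not had a counterpart at the same position on the other side. Peaks were called shared where any base, 1 bp or more, lay in a peak of the opposite list. Of the ipsilateral peaks 190321, or 63.3% (95% Wilson interval 63.1% to 63.5%), were shared, and of the contralateral peaks 188112, or 51.2% (51.1% to 51.4%). The peaks without a counterpart were 110347 on the ipsilateral side, 36.7% of that list, and 178949 on the contralateral side, 48.8%. Intervals on shares cover counting error only and treat neighbouring peaks as independent, which they are not; where all shared or all side-only peaks of a side are set against another list below, they reach at most 0.207 percentage points to either side, and for smaller subsets they are wider.

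In bases, the lists covered 161 Mb and 197 Mb, and 96.1 Mb of this was common. The common bases were 59.6% of the ipsilateral and 48.9% of the contralateral cover. Bases covered on 1 side alone came from separate peaks and from the edges of shared ones. On the ipsilateral side 36.5 Mb of the 65.2 Mb lay in peaks with no counterpart and 28.7 Mb in shared peaks that reached beyond their counterpart. On the contralateral side these amounts were 66.5 Mb and 33.9 Mb of 100.4 Mb. Where 1 peak met exactly 1 peak of the other list, in 142968 pairs, the overlap took a median 98.3% of the shorter peak, and the median lengths were 420 bp ipsilateral and 453 bp contralateral. In the median pair nearly all bases of the shorter peak, though not every one, thus lay inside the longer one.

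Side-only peaks were short. Their median length was 285 bp on the ipsilateral side and 315 bp on the contralateral side, against 448 bp and 492 bp for shared peaks. Of 28789 ipsilateral peaks of 1 kb or more 578 had no counterpart, 2.01%, and of 33991 contralateral peaks of that length 2156, 6.34%. The longest were 2155 bp and 3202 bp, while shared peaks reached 29012 bp and 20748 bp. Fold enrichment over the local background, the authors' own value for each peak, differed less: its median was 2.56 for side-only and 2.69 for shared ipsilateral peaks, and 2.82 and 3.20 on the contralateral side. Folds are higher throughout the contralateral list, so they are used here only within a list.

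Sharing followed the strength of a peak, ranked by its −log10 q-value within its own list. In the strongest 10% of each list 92.9% of ipsilateral and 90.3% of contralateral peaks were shared. From there the lists parted. In the weakest 10% 50.1% of ipsilateral peaks still had a counterpart, and 31.8% of contralateral peaks. Length fell with rank too, from a median of 992 to 293 bp on the ipsilateral and from 926 to 310 bp on the contralateral side. The part of length in this sharing was not tested. Among the 1000 strongest ipsilateral peaks none lacked a counterpart of any strength, and among the 1000 strongest contralateral peaks 6 did. For the 10000 strongest the numbers were 176 and 216.

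**Figure D1:**
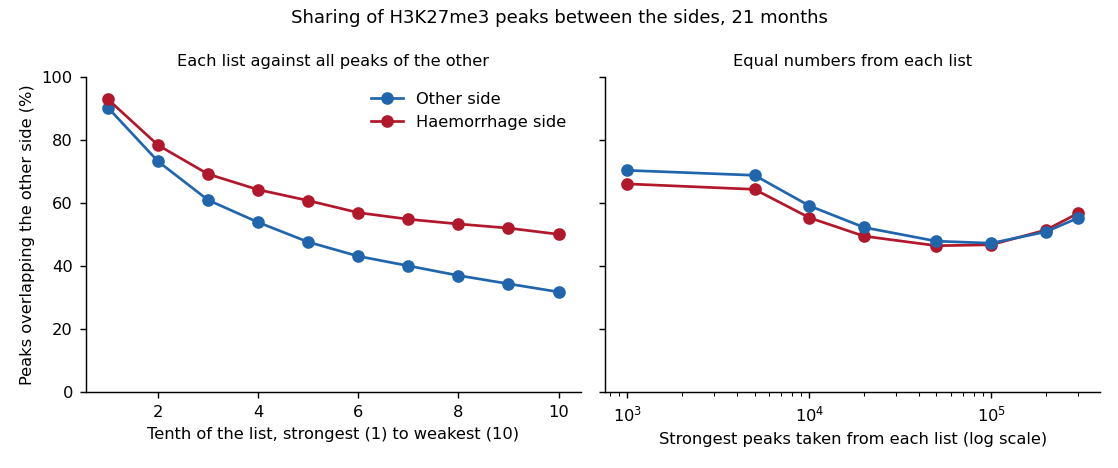
Share of H3K27me3 peaks (%) that overlap a peak of the other side at 21 months. On the left each list is split by −log10 q-value into 10 equal parts, strongest first, and set against the whole other list, and on the right equal numbers of the strongest peaks of both lists are set against each other (log axis). The haemorrhage side stays above the other side on the left, from 92.9% against 90.3% to 50.1% against 31.8%, and the lines lie within 5 percentage points of each other on the right.

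With equal numbers of peaks the sides were nearly alike in sharing. When the contralateral list was cut to its 300668 strongest peaks, 56.8% of ipsilateral and 55.3% of contralateral peaks were shared, and 56.0% and 52.1% of bases. At smaller equal numbers the order turned. Among the 1000 strongest of each list 66.1% of ipsilateral peaks overlapped one of the 1000 strongest contralateral peaks, and 70.4% the other way. At 10000 the shares were 55.4% and 59.2%, and at 50000 they were 46.5% and 47.9%. The difference between the whole lists, 63.3% against 51.2%, thus mainly reflects their lengths, as 190321 and 188112 peaks were shared. Strong ipsilateral peaks were also the longer ones: the 1000 strongest had a median of 4417 bp and covered 5.22 Mb, against 3308 bp and 3.94 Mb on the contralateral side. At 100000 the order of the covered bases was the reverse, 84.4 Mb and 87.7 Mb.

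Narrow peak calling breaks a wide mark into pieces, so peaks of a list that lay within 1 kb of each other were joined to domains. The typical domain was equally short on both sides, and the sides differed in the number of small domains. There were 164268 ipsilateral and 216228 contralateral domains, each with a median length of 453 bp. The middle 50% ran from 272 to 1449 bp on the ipsilateral side and from 286 to 1301 bp on the contralateral side. A single peak made up 64.8% of ipsilateral and 68.8% of contralateral domains. The mean number of peaks per domain was 1.83 and 1.70.

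Above a few kb the sides counted nearly the same. Domains of at least 5 kb numbered 8746 and 9344, of at least 10 kb 2265 and 2463, of at least 20 kb 429 and 464, and of at least 50 kb 30 and 33. The longest spanned 137 kb (ipsilateral) and 133 kb (contralateral). Domains of 5 kb or more held 36.3% of all bases spanned by ipsilateral domains and 32.5% on the contralateral side. With equal numbers of peaks the contralateral median was 476 bp, and its long domains numbered 7599 at 5 kb and 359 at 20 kb, fewer than the ipsilateral ones. Which side had more long domains therefore depended on the number of peaks entered.

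**Figure D2:**
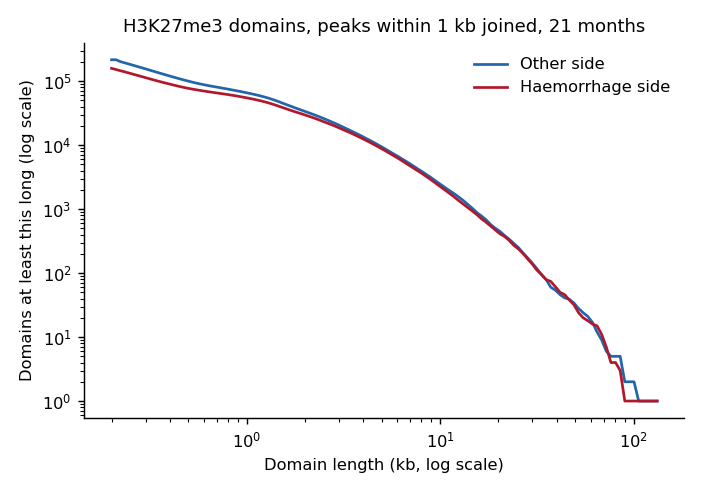
Number of H3K27me3 domains (peaks of a list within 1 kb joined) at least as long as the value on the x axis, in kb, for the haemorrhage side and the other side at 21 months; both axes are logarithmic. The lines start apart, at 164268 and 216228 domains, and come together above 5 kb, where 8746 and 9344 domains remain.

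Long domains were present on both sides and short ones often on 1. Of ipsilateral domains 63.9% overlapped a contralateral domain, and of contralateral domains 48.4% overlapped an ipsilateral one. Domains with no counterpart had a median length of 289 bp and 329 bp, against 910 bp and 1061 bp for those with one. None of the 429 ipsilateral domains of 20 kb or more lacked a counterpart, and none of the 464 contralateral ones did. Of those of 5 kb or more 2 ipsilateral and 40 contralateral domains did. Any overlap of 1 bp or more counted, so a longer domain met a counterpart more easily. The part of length in this was not tested.

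The same long domain was often cut at different places. Of the 429 wide ipsilateral domains, 147 met a single contralateral domain, 106 met 2 and 176 met 3 or more, up to 9. On the contralateral side 138 of 464 met a single ipsilateral domain, 128 met 2 and 198 met 3 or more. Peaks of their own side filled a median 80.3% of the wide ipsilateral domains, and contralateral peaks filled 73.2% of the same stretches. For the wide contralateral domains the values were 77.1% and 71.8%.

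To compare the sides over common boundaries, the peaks of both lists were joined together at gaps of at most 1 kb. This gave 237120 union domains: 101242 held peaks of both sides, 42218 of the ipsilateral side alone and 93660 of the contralateral side alone. The 1-sided domains are numerous but small. They carried 14.9 Mb, or 9.23% of all ipsilateral cover, and 38.7 Mb, or 19.7% of contralateral cover. In union domains under 1 kb 20.6% held both sides, in those of 1 to 5 kb 80.9%, and in those of 5 to 10 kb 99.7%. All 948 union domains of 20 to 50 kb and all 75 longer ones held both. Part of this rise is built in, because union domains join both lists and longer ones have more room for peaks of either.

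How evenly the sides covered a union domain varied with its length. Among union domains under 1 kb with both sides, 60.2% were covered within 1.5-fold of each other. At 1 to 5 kb this share was lower, 43.4%, and at 5 to 10 kb, 10 to 20 kb and 20 to 50 kb it was 63.2%, 79.9% and 91.7%. At 20 to 50 kb the median ratio of ipsilateral to contralateral covered bases was 0.972, with the middle 50% between 0.848 and 1.10. Of the 75 union domains of 50 kb or more 74 were within 1.5-fold, the median ratio was 0.986, and the ipsilateral side covered more in 37. Of the 1023 union domains of 20 kb or more, the ipsilateral side covered over 1.5 times as much in 29 and the contralateral side in 51.

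**Figure D3:**
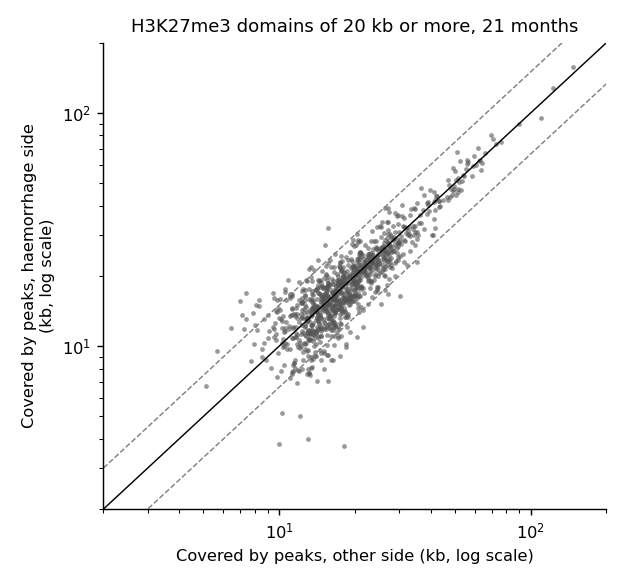
Bases covered by H3K27me3 peaks on the haemorrhage side (y axis, kb) and on the other side (x axis, kb) in each of the 1023 union domains of 20 kb or more at 21 months, both axes logarithmic. The solid line marks equal cover and the dashed lines 1.5-fold; 29 domains lie above the upper and 51 below the lower dashed line.

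The 8 union domains with the most cover on both sides show this at single positions. The largest, at chromosome 1, 264392603 to 264573497, had 157.4 kb covered on the ipsilateral and 147.5 kb on the contralateral side. At chromosome 10, 84102231 to 84239779, the covered lengths were 128.4 kb and 122.1 kb, and a near neighbour at 83963339 to 84050429 had 73.8 kb and 72.7 kb. The third by size, at chromosome 20, 6641708 to 6775042, had 95.2 kb against 110.0 kb, the largest difference of the 8 in bases. Cover was 89.5 kb on both sides at chromosome 12, 17097738 to 17203405. At chromosome 14, 80484852 to 80573663, it was 75.2 kb and 76.4 kb, at chromosome 10, 71838639 to 71931379, 77.3 kb and 70.5 kb, and at chromosome 7, 144506315 to 144591797, 80.1 kb and 69.4 kb. In 6 of these 8 domains the ipsilateral side covered more, although its list is the shorter.

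All 8 were also found in the lists that played no part in choosing them, to differing extents. At chromosome 10, 84102231, peaks covered 124.6 kb at 13 months on the ipsilateral side, 103.9 kb on the contralateral side and 105 kb with either plasma. At chromosome 20, 6641708, the 13-month lists covered 35.6 kb and 34.0 kb, and 5.98 kb and 0.721 kb were covered after plasma of 3 months and of 22 months. The first of these domains was thus nearly as wide in every list, and the second was widest in the 21-month lists without plasma. The plasma and 13-month lists are shorter, with 37241 to 117866 peaks.

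Among wide domains present on both sides, the largest excess on the ipsilateral side was at chromosome 9, 84033110 to 84110861, with 67.8 kb against 51.1 kb. It was followed by chromosome 17, 44656263 to 44697925, with 32.0 kb against 15.7 kb, and chromosome 1, 14771479 to 14817672, with 39.0 kb against 26.3 kb. At chromosome 6, 77391971 to 77435516, the lengths were 39.1 kb and 27.1 kb, and at chromosome 8, 95369331 to 95403048, 27.2 kb and 15.2 kb. These 5 domains were well covered in ipsilateral tissue elsewhere in the study: at 13 months between 28.9 kb and 65.7 kb on the ipsilateral side against 14.8 kb to 42.9 kb on the contralateral side, and with plasma of 22-month rats 19.5 kb to 50.3 kb. In each of the 5 the 13-month lists had the same order of sides as the 21-month lists. The 13-month ipsilateral list, the longer one, also covered more in 858 of the 943 wide union domains covered within 1.5-fold at 21 months.

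The largest excess on the contralateral side was at the chromosome 20 domain already named, with 14.8 kb more. Next came chromosome 3, 164480679 to 164505904, where 18.1 kb were covered on the contralateral and 3.72 kb on the ipsilateral side, and chromosome 10, 107515903 to 107559237, with 30.2 kb and 16.5 kb. At chromosome 1, 163001202 to 163052049, the lengths were 35.2 kb and 23.0 kb, and at chromosome 5, 165725953 to 165777812, 40.9 kb and 30.0 kb. Outside the 21-month lists without plasma these domains were thinly covered, apart from the first. The other 4 had at most 6.56 kb at 13 months on the ipsilateral side, 11.1 kb on the contralateral side and 3.14 kb with either plasma. In all 5 the ipsilateral H3K9ac list covered more than the contralateral one, most at chromosome 10, 107515903, with 8.11 kb against 0.861 kb, and at chromosome 3, 164480679, with 6.46 kb against 0.237 kb. This order was not particular to them. Among the 943 wide union domains covered within 1.5-fold, ipsilateral H3K9ac covered more in 603 and contralateral H3K9ac in 27.

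Counts over all wide union domains were as follows. In the 29 with over 1.5 times the cover on the ipsilateral side at 21 months, the 13-month ipsilateral list covered more than the 13-month contralateral list in 29, with medians of 14.7 kb and 4.59 kb. In the 51 with over 1.5 times the cover on the contralateral side it did so in 30, with medians of 1.38 kb and 1.14 kb. In the 943 more even domains it did so in 858. The 13-month ipsilateral list had 117866 peaks and the contralateral list 51805, which bears on all 3 counts. H3K9ac at 21 months covered more on the ipsilateral side in 35 of the 51 and more on the contralateral side in none, with 16 lacking it on both. In the 29 these counts were 8, 6 and 15, and in the 943 they were 603, 27 and 313.

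Domains of 1 side alone were short even at their largest. The 5 largest ipsilateral ones had 2.53 to 3.08 kb covered, led by chromosome 5, 162595321 to 162599790, with 3.08 kb in 5 peaks. The others lay at chromosome 10, 77414218 to 77419147, chromosome 2, 47058693 to 47063046, chromosome 15, 87964296 to 87969653, and chromosome 14, 41609441 to 41613014. All 5 held peaks in the 13-month ipsilateral list, over 0.989 to 1.96 kb, and 3 of them in the 13-month contralateral list, over at most 0.299 kb. Of all ipsilateral-only peaks, taken singly, 13.3% and 2.35% met these lists. The shares over all domains of 1 side alone were not taken.

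Contralateral domains without ipsilateral peaks reached further. The largest, at chromosome 5, 62736183 to 62748614, had 6.11 kb covered in 12 peaks over 12432 bp. It was followed by chromosome 19, 52127976 to 52135776, with 4.53 kb, chromosome 5, 166606650 to 166614028, with 4.08 kb, chromosome 8, 61313993 to 61320362, with 4003 bp, and chromosome 3, 4039073 to 4044666, with 3995 bp. None of these 5 had a peak in the 13-month ipsilateral list or with either plasma, and 2 had a peak of 0.213 kb and 0.316 kb in the 13-month contralateral list. Such peaks were few among all contralateral-only peaks too. Taken singly, 3.95% of these met the 13-month ipsilateral and 1.97% the 13-month contralateral list. The last of them held H3K4me3 on both sides, over 0.747 kb ipsilateral and 3.02 kb contralateral, and H3K9ac over 2.71 kb and 0.244 kb.

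The strongest side-only peaks of each list are given with their folds, which are not compared between the lists. On the ipsilateral side the 5 of highest fold had folds of 6.19 to 7.82, led by chromosome 17, 27922479 to 27922777. Their nearest contralateral peak was 271 to 2828 bp away, and all 5 positions also had a peak in the 13-month ipsilateral list and 4 of them in the 13-month contralateral list. Among all ipsilateral-only peaks the shares in these lists were 13.3% and 2.35%. On the contralateral side a 647-bp peak at chromosome 1, 265469142 to 265469788, had a fold of 43.6 and a −log10 q-value of 440. A pair of neighbouring peaks followed, at chromosome 7, 11211625 to 11213647 and 11208583 to 11210133, with folds of 23.2 and 22.0. Peaks at chromosome 1, 11971516 to 11971916, and chromosome 10, 5465043 to 5465748, had folds of 13.2 and 9.70. Of these 5 contralateral positions 4 had a peak in the 13-month contralateral list and 1 in the 13-month ipsilateral list, and 3 lay 31.5 to 35.1 kb from the nearest ipsilateral peak. Among all contralateral-only peaks the shares in these lists were 1.97% and 3.95%. The folds of the 5 are far above the median of 2.82 for contralateral-only peaks.

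With all peaks, most side-only peaks lay within 5 kb of a shared one, and the share was higher on the ipsilateral side. The distance of arbitrary positions from shared peaks was not taken for comparison. The gap from an ipsilateral-only peak to the nearest shared peak of its list had a median of 2.00 kb, and from a contralateral-only peak 4.06 kb. Shared peaks themselves lay a median of 644 bp and 667 bp from the next shared peak. Within 5 kb of a shared peak were 68.4% of ipsilateral-only and 54.3% of contralateral-only peaks, and beyond 20 kb were 12.1% and 21.3%. As domains, 38.5% of ipsilateral-only peaks and 27.01% of contralateral-only peaks belonged to a domain that also held a shared peak. The order of the sides was the same with equal numbers of peaks, at 66.1% and 52.5% within 5 kb. With a −log10 q-value of at least 5 the shares were 55.4% and 43.5%. Both lists have about as many shared peaks, 190321 and 188112.

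**Figure D4:**
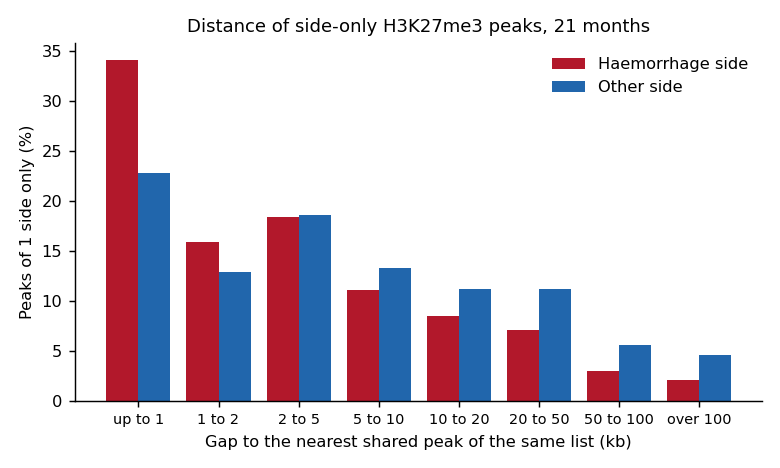
Share of side-only H3K27me3 peaks (%) by the gap to the nearest shared peak of the same list (kb) for the haemorrhage side and the other side at 21 months. Bars for the haemorrhage side are taller up to 2000 bp, with 34.1% against 22.8% within 1 kb. Bars for the other side are taller from 2000 bp on. At 2000 to 5000 bp this is narrow, with 18.6% against 18.4%, and beyond 100 kb it is 4.56% against 2.04%.

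At 13 months side-only peaks lay further out on both sides, with median gaps of 20.7 kb and 20.9 kb and 29.2% and 27.4% within 5 kb. The 13-month lists share fewer peaks, 19.7% of 117866 ipsilateral and 50.8% of 51805 contralateral peaks, which bears on these gaps. The difference between the ages was not tested.

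Peaks isolated from shared ones were a little shorter. Ipsilateral-only peaks beyond 20 kb had a median length of 262 bp against 293 bp for those within 5 kb, and contralateral-only peaks 297 bp against 326 bp. Their median folds differed little, 2.53 and 2.56 on the ipsilateral and 2.79 and 2.84 on the contralateral side.

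Few H3K27me3 peaks overlapped a peak of H3K4me3, and shared peaks did so most often. On their own side 3.11% of ipsilateral peaks and 3.81% of contralateral peaks overlapped H3K4me3. Among shared peaks the shares were 4.20% and 5.50%, and among side-only peaks 1.23% and 2.03%. Side-only peaks are also shorter, and the part of length in this was not tested. At equal peak numbers the shares over all peaks were 3.11% and 4.22%. Seen from H3K4me3, 28.3% of its 30356 ipsilateral peaks overlapped ipsilateral H3K27me3, and 36.7% of its 35063 contralateral peaks overlapped contralateral H3K27me3. Against the H3K27me3 of the opposite side the shares were 32.9% and 32.0%. Either H3K4me3 list thus met the longer contralateral H3K27me3 list more often.

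A promoter-type position can be held constant by taking H3K4me3 peaks present on both sides. Of 24769 such ipsilateral H3K4me3 peaks 7061, or 28.5%, met H3K27me3 on both sides and 14975, or 60.5%, on neither. H3K27me3 on the ipsilateral side alone was met by 630, or 2.54%, and on the contralateral side alone by 2103, or 8.49%, which is 3.34 times as many. With equal numbers of H3K27me3 peaks these counts were 778 and 1640, and with a −log10 q-value of at least 5 in both lists they were 639 and 1691. At 13 months the order was the reverse for the same positions, with 1113 for the ipsilateral side alone and 789 for the contralateral, where the ipsilateral list is the longer one.

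The 2 kinds of 1-sided positions differed in their H3K4me3. Where H3K27me3 was contralateral alone, the H3K4me3 peaks had a median length of 1141 bp and a median fold of 8.41, close to the 1100 bp and 10.3 of positions without H3K27me3. Where it was ipsilateral alone, they had 417 bp and 4.07, below the 901 bp and 5.80 of positions with H3K27me3 on both sides. H3K9ac was present on the ipsilateral side at 91.7% of the contralateral-alone and 64.3% of the ipsilateral-alone positions. For contralateral H3K9ac these shares were 88.4% and 74.3%. Positions without H3K27me3 had ipsilateral and contralateral H3K9ac at 86.0% and 92.2%, and those with H3K27me3 on both sides at 89.7% and 76.5%. H3K9ac was thus common at all 4 kinds of position and least so, on both sides, at the ipsilateral-alone ones.

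Lists that did not enter this sorting differed between the kinds as well. The 13-month ipsilateral H3K27me3 list had a peak at 25.2% of the ipsilateral-alone positions, 159 of 630, and at 6.47% of the contralateral-alone ones, 136 of 2103. For the 13-month contralateral list the shares were 7.30% and 11.3%. With plasma of 22-month rats they were 10.8% and 0.713%, and with plasma of 3-month rats 7.46% and 0.903%. At positions with H3K27me3 on both sides these 4 lists had a peak at 78.5%, 75.2%, 36.2% and 48.9%. At positions with it on neither side the shares were 1.25%, 0.721%, 0.935% and 0.781%. In the plasma lists the contralateral-alone positions were thus close to those without H3K27me3.

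By covered bases, the leading H3K4me3 position with H3K27me3 on the contralateral side alone was chromosome 16, 83822841 to 83831861, where 3444 bp of the 9021-bp H3K4me3 peak were covered. The next lay at chromosome 13, 51073682 to 51077296, with 2060 bp, chromosome 11, 71872318 to 71874496, with 1835 bp, chromosome 19, 54108982 to 54111806, with 1801 bp, and chromosome 10, 7041065 to 7044143, with 1629 bp. All 5 had 212 to 544 bp of H3K27me3 in the 13-month contralateral list, 1 had any in the 13-month ipsilateral list, and none had any with plasma. The leading position with the mark on the ipsilateral side alone was chromosome 11, 12256009 to 12259213, with 1223 bp of 3205 bp covered. It was followed by chromosome 7, 88199504 to 88202410, with 1191 bp, chromosome 17, 44542495 to 44545607, with 1110 bp, chromosome 2, 29883929 to 29885256, with 1093 bp, and chromosome 2, 231456314 to 231459922, with 1058 bp. Of these 3 had 1152 to 1412 bp in the 13-month ipsilateral list and 1 had 237 bp in the 13-month contralateral list. All 10 positions carried H3K9ac on both sides.

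The active mark H3K9ac met the side-only peaks unequally. Of contralateral-only H3K27me3 peaks 6.26% overlapped an ipsilateral H3K9ac peak and 3.26% a contralateral one. Of ipsilateral-only peaks 2.18% and 2.36% did, and of shared ipsilateral peaks 8.26% and 4.89%. The ipsilateral H3K9ac list has fewer peaks, 102607 against 120348, and still met the contralateral-only and the shared peaks more often. When both H3K9ac lists had equal numbers of peaks, the ratio of ipsilateral to contralateral overlap was 2.16 for contralateral-only, 1.84 for shared ipsilateral and 1.07 for ipsilateral-only peaks. By position, 6781 contralateral-only peaks met H3K9ac on the ipsilateral side alone and 1408 on the contralateral side alone. For ipsilateral-only peaks the counts were 1170 and 1369, and for shared ipsilateral peaks 7957 and 1555. More H3K9ac of the ipsilateral side was therefore found at shared H3K27me3 peaks too and not just at contralateral-only ones.

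The H3K9ac overlaps were also taken by distance from shared peaks. Beyond 20 kb from any shared peak 7.13% of contralateral-only peaks met ipsilateral H3K9ac and 4.34% contralateral H3K9ac, and 2.30% and 2.72% of ipsilateral-only peaks did. Within 5 kb the values were 5.47% and 2.54%, and 2.24% and 2.43%. Of all 102607 ipsilateral H3K9ac peaks 18.0% overlapped ipsilateral and 26.7% contralateral H3K27me3, and of all contralateral H3K9ac peaks 9.88% and 12.5%.

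Ipsilateral-only peaks recurred more often than contralateral-only peaks in the other H3K27me3 lists of ipsilateral tissue, and only slightly more often in the 1 list of contralateral tissue. In the 13-month ipsilateral list a peak was found at 14640 of 110347 ipsilateral-only positions, 13.3%, and at 7068 of 178949 contralateral-only positions, 3.95%. In the 13-month contralateral list, the only one here of contralateral tissue, it was found at 2.35% and 1.97%. With plasma of 22-month rats, again in ipsilateral tissue of 21 months, the shares were 6.40% and 1.63%, and with plasma of 3-month rats 3.54% and 1.07%. Shared ipsilateral peaks had 28.5%, 16.3%, 8.19% and 8.84% in these 4 lists. Median lengths were 315 bp for contralateral-only and 285 bp for ipsilateral-only peaks. The part of length in these shares was not tested.

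**Figure D5:**
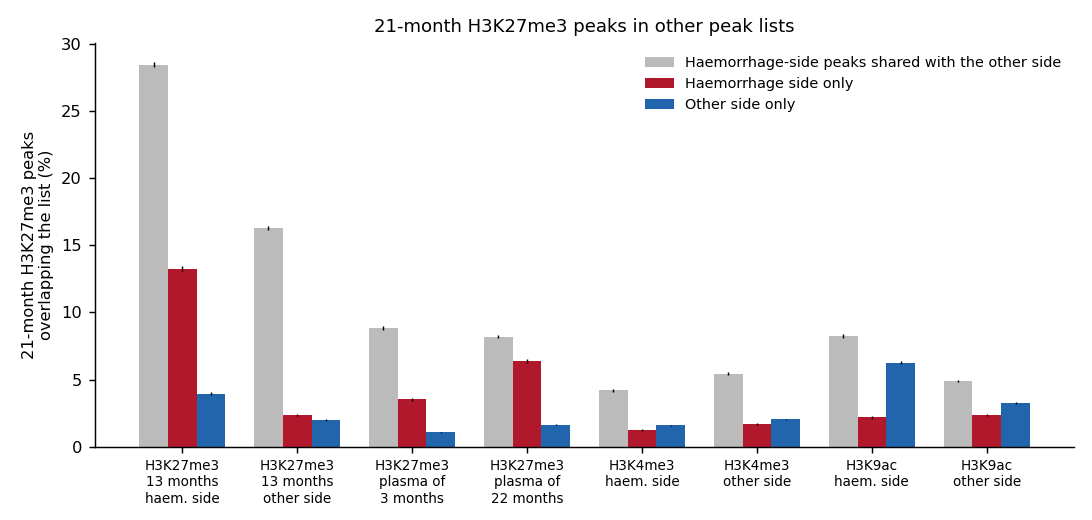
Share (%) of 21-month H3K27me3 peaks that overlap each of 8 other peak lists, for haemorrhage-side peaks shared with the other side, peaks of the haemorrhage side only and peaks of the other side only, with 95% Wilson intervals. Haemorrhage-side-only peaks lie above other-side-only peaks in the 4 H3K27me3 lists, most in the 13-month haemorrhage-side list with 13.3% against 3.95%, and below them in the 4 lists of H3K4me3 and H3K9ac. The H3K27me3 list with the smallest difference is the 13-month list of the other side, with 2.35% against 1.97%.

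The 13-month ipsilateral list is longer than the contralateral one, and with the 51805 strongest peaks of each the shares were lower. Ipsilateral-only peaks then met the ipsilateral list at 6.00% and contralateral-only peaks at 1.32%. The ratio of overlap with the 13-month ipsilateral to that with the 13-month contralateral list was 2.55 for ipsilateral-only peaks, 0.670 for contralateral-only peaks, and 0.996 for shared ipsilateral peaks. In this setting side-only peaks of either side thus met the 13-month list of their own side more often, and shared peaks met both alike. Beyond 20 kb from any shared peak, the equal-sized 13-month lists were met by 1.66% (ipsilateral) and 1.10% (contralateral) of ipsilateral-only peaks and by 0.456% and 1.51% of contralateral-only peaks.

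Along the chromosomes both sides followed the same outline. In 2758 windows of 1 Mb on the assembled chromosomes with cover on both sides, covered bases of the sides had a Spearman correlation of 0.969 and a Pearson correlation of 0.959. This is a description across windows, which share libraries, mappability and base composition. The contralateral side covered more in most windows, with a median ratio of ipsilateral to contralateral cover of 0.752, and the ipsilateral side covered more in 506, or 18.3%. With equal numbers of peaks it did so in 34.7%.

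The ratio varied with the H3K4me3 content of a window, taken as the mean cover of both sides. In the 552 windows with least H3K4me3 the ipsilateral side covered more in 9.78%, in the middle group in 32.2%, and in the 552 windows with most in 8.33%. Cover by side-only peaks was most unequal where H3K4me3 was densest: there ipsilateral-only peaks covered 7.06 Mb and contralateral-only peaks 19.99 Mb, a ratio of 0.353, against 10.02 Mb and 13.7 Mb and 0.731 in the middle group. The ratio of all covered bases at 21 months was 0.720 in the windows with least H3K4me3, 0.916 in the middle group and 0.754 in the densest. With equal numbers of peaks it was 0.866, 1.045 and 0.836. The middle group stayed highest, the ipsilateral side covered more there, and the least and densest groups changed order. At 13 months, when the ipsilateral list is the longer, the ratio over all peaks was 3.50, 2.82 and 1.83. The order of the groups thus differed between the ages.

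Of 1185 windows with at least 100 kb of summed cover, the highest ratio, 1.76, was at 34 to 35 Mb of chromosome 8, with 89.4 kb ipsilateral and 50.9 kb contralateral. It held 1.22 kb of H3K4me3, no ipsilateral H3K9ac and 2.80 kb of contralateral H3K9ac. The 13-month lists covered 45.7 kb and 6.93 kb there. The lowest, 0.308, was at 37 to 38 Mb of chromosome 12, with 28.0 kb and 91.1 kb. It held 47.5 kb of H3K4me3, 121.8 kb of ipsilateral and 101.3 kb of contralateral H3K9ac. The 13-month lists covered 5.75 kb and 4.395 kb there. The 5 windows of highest ratio held 1.22 to 38.7 kb of H3K4me3, and the 5 of lowest ratio 11.4 to 47.5 kb.

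By chromosome, the ratio of ipsilateral to contralateral peak numbers lay between 0.729 on chromosome 12 and 0.859 on chromosome 1 among the autosomes. Chromosome 12 was also the most densely covered, with 106.8 kb per Mb ipsilateral and 146.7 kb contralateral, and 77.8% of its ipsilateral peaks were shared, the highest share of the chromosomes. The X chromosome was thinly covered on both sides, with 5.77 kb and 6.43 kb per Mb, where the sparsest autosome, chromosome 2, had 37.3 kb and 43.7 kb. On X 43.8% of ipsilateral and 36.2% of contralateral peaks were shared.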

How the data were processed

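Groups were taken from the labels. Reads were handled with cutadapt, Bowtie2 and HOMER, per the submitters' processing notes. The authors pooled the libraries of a side and called narrow peaks with MACS 2.1.1.20160309 at a q-value cutoff of 0.05, with 1 tag kept per position and single-end handling, per the file headers. Duplicates were 15% of ipsilateral and 19% of contralateral ChIP tags. The genome build was not given in these sources; positions are 1-based, as deposited. Each deposited list gives per peak a fold enrichment (the ratio of ChIP to local background) and a −log10 q-value. Both served here for ranking, filtering and description within 1 list.

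Overlaps, gaps and domains were computed with numpy 2.4.6 and pandas 2.3.3, and intervals with scipy 1.17.1 (Python 3.11.15). The interval code was tested on simulated data. With 1 list a side no test was made. The members, lists and rules were chosen with earlier results of these data known. Named regions lie on assembled chromosomes: the 8 union domains with the largest lower-of-2-sides cover, and 5 for each other kind, by covered bases, by difference or, for peaks, by fold. The gene and marker lists planned were not used, for want of an annotation of this build here. Alternatives were equal numbers of peaks, a −log10 q-value of at least 5, assembled chromosomes, overlap of at least 0.5 of the shorter peak, and other joining gaps and distances. Equal numbers for the 13-month and H3K9ac lists, equal numbers below 300668 and the windows were added after seeing the data.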

Additional observations from a re-analysis of the deposited data

Results flagged for a closer look

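The order of the sides in the size of the H3K27me3 lists differed between the ages. At 13 months the ipsilateral list had 2.28 times as many peaks as the contralateral list and covered 2.36 times as many bases, and at 21 months these ratios were 0.819 and 0.821. The ipsilateral list had more ChIP tags at both ages, 2.01 times at 13 months and 1.61 times at 21 months. Each value rests on 1 list a side, and the difference between the ages was not tested.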

How the results depend on the processing

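No paired analysis was possible because each side is 1 pooled list. Of 44 values under other settings, 14 stayed within the 95% interval of the main value, among them all 10 on assembled chromosomes only. Pairs below give the ipsilateral value first. With equal numbers of peaks the shared peaks were 56.8% and 55.3%, the shared bases 56.0% and 52.1%, the contralateral median domain 476 bp, the side-only peaks within 5 kb of a shared one 66.1% and 52.5%, and the contralateral overlap with H3K4me3 4.22%. With a −log10 q-value of at least 5 the same quantities were 55.4% and 44.5%, 57.7% and 47.3%, 552 and 536 bp, 55.4% and 43.5%, and 4.56% and 5.34%. With an overlap of at least 0.5 of the shorter peak, 58.2% and 47.3% of peaks were shared and 2.89% and 3.54% overlapped H3K4me3. The median domain was 365 and 381 bp when only touching peaks were joined and 876 and 624 bp at gaps of up to 3000 bp, so the order of the sides in domain length depended on the gap. Within 1 kb of a shared peak were 34.1% and 22.8% of side-only peaks, and within 20 kb 87.9% and 78.7%. In every setting run the ipsilateral list had the higher shares of shared peaks and bases and of side-only peaks near shared ones, and the lower overlap with H3K4me3, except among equal numbers of 100000 or fewer strongest peaks, where the contralateral list had the higher share of shared peaks. The cause of these shifts was not tested. Overlap is mutual, so the order of the sides in shares of peaks and bases largely follows the size of the lists. Depth differs between the lists and cannot be told apart from the side.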
